A study of Mus musculus with 4 samples.

Results

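Photoreceptors depend on secreted and cell-surface survival signals, and 10 genes of such signals were followed in the RNA-seq data of *rd7* and wild-type mouse retinas. They were taken by gene symbol from the 22095 rows of the deposited expression table and comprise the rod-derived cone viability factor genes *Nxnl1* and *Nxnl2*, the ligand genes *Bdnf*, *Cntf*, *Gdnf* and *Igf1*, and the receptor genes *Ntrk2*, *Cntfr*, *Gfra1* and *Igf1r*. All 10 are listed with a successful estimate in all 4 libraries. The *rd7* mouse carries a mutation of *Nr2e3*, which encodes a nuclear receptor that represses cone genes in developing rods, so that its rods are rod/cone hybrids. The labels give C57BL/6J as the strain of both genotypes and an age of 3 weeks. Each of the 2 *rd7* and 2 wild-type libraries was made from polyA RNA of 8 pooled retinas of 2 females and 2 males, so the spread between replicates is a spread between pools of animals. Whole retina was sequenced, and fewer cells of a type and less RNA per cell cannot be told apart in such data.

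Rods release a short form of the *Nxnl1* product, rod-derived cone viability factor, which binds basigin on cones and promotes their uptake of glucose. A long form with a thioredoxin domain acts against oxidation inside the cell, and *Nxnl2* encodes a related pair of proteins. The neurotrophic ligands act through receptors of other kinds. BDNF binds the receptor tyrosine kinase TrkB, the product of *Ntrk2*. CNTF binds an anchored receptor subunit encoded by *Cntfr*, which joins gp130 and the LIF receptor and signals through JAK kinases and STAT3. GDNF binds the anchored co-receptor encoded by *Gfra1*, which presents it to the kinase RET, and IGF-1 binds the receptor tyrosine kinase encoded by *Igf1r*. In the retina these ligands are known to protect photoreceptors, in part through Müller glia.

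Expression was given as FPKM, a number of read fragments divided by transcript length and by library depth, so that levels can be set side by side between genes. Genotypes were compared by limma on log2(FPKM + 0.1), for the 12655 genes whose mean FPKM reached 1, with Benjamini-Hochberg adjustment at an FDR of 5%. At this threshold 37.6% of the genes tested were higher in *rd7* and 8.80% were lower, 46.4% in all. Of the survival genes, 9 were tested, and 4 of them (*Cntf*, *Igf1*, *Gfra1* and *Ntrk2*) were higher and 2 (*Nxnl1* and *Nxnl2*) were lower. *Gdnf* lay under the filter. Both *rd7* values were above both wild-type values for the 4 higher genes and below them for 3 genes (*Nxnl1*, *Nxnl2* and *Cntfr*), while *Bdnf* and *Igf1r* overlapped. Over all genes tested 57.1% lay above in this way and 19.5% below, 76.6% in all. The median log2 fold change was 0.07 over the 9 genes and 0.15 over all genes tested. Under median-ratio scaling, in which a library is divided by the median of its genes' ratios to their geometric means over libraries and which brings the median of all genes to -0.0049, the same 6 genes were called in the same direction and *Cntfr* was also called lower. With that scaling 19.7% of the genes tested were higher and 19.6% lower. The call of *Cntf* rested on its row alone and was lost when it was summed with an overlapping row. The mutated gene itself, *Nr2e3*, had an FPKM of 2490 and 1590 in *rd7* retinas against 385 and 394 in wild-type retinas, and a value per gene does not show the mutation.

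**Figure D1:**
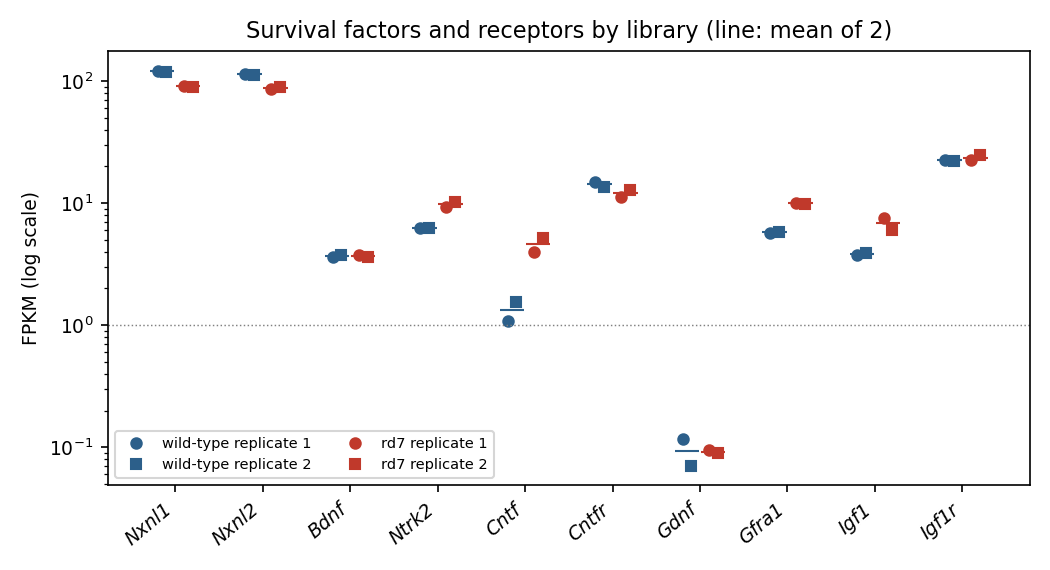
FPKM of the 10 genes on a log axis in each of the 4 libraries (blue, wild-type; red, *rd7*; circles and squares, replicates 1 and 2; lines, means of 2 libraries; the dotted line marks the filter at 1). *Nxnl1* and *Nxnl2* lie highest and *Gdnf* lowest, below the filter, in both genotypes.

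The cone viability factor genes were by far the most abundant members. In wild-type retinas the mean FPKM was 120 for *Nxnl1* and 114 for *Nxnl2*, followed by *Igf1r* (22.5), *Cntfr* (14.3), *Ntrk2* (6.26), *Gfra1* (5.75), *Igf1* (3.84), *Bdnf* (3.67), *Cntf* (1.33) and *Gdnf* (0.0933). Each gene lay above the next in both wild-type libraries, although the lower value of *Igf1*, 3.77, was close to the higher value of *Bdnf*, 3.73. In *rd7* retinas *Nxnl1* and *Nxnl2* overlapped, as did *Gfra1* and *Ntrk2*, and the *Cntf* row stood above *Bdnf*. Joined with the overlapping row *Zfp91-Cntf*, *Cntf* was above *Bdnf* in both wild-type libraries too (3.79 and 4.05 against 3.60 and 3.73). Each receptor gene exceeded the gene of its ligand in all 4 libraries.

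The windows of 250 bases before the annotated start of *Nxnl1* and *Nxnl2*, the pair that fell together, and of *Cntf*, whose row taken alone gave the largest rise, are shown here from RefSeq (build GRCm38.p6, 5′ to 3′ on the strand of the gene). Capitals mark matches on either strand to TAATCC, the letters of a site bound by the photoreceptor homeobox factor CRX, to AAGTCA, those of a half-site of NR2E3, and to TGCTGA, part of a site of the rod factor NRL.
*Nxnl1* (chr8:71566650-71566899, minus strand): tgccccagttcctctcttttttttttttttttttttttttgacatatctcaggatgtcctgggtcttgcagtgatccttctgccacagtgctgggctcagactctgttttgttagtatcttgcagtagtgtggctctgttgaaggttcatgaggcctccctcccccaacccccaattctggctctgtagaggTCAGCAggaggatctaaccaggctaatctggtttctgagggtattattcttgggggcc
*Nxnl2* (chr13:51170775-51171024, plus strand): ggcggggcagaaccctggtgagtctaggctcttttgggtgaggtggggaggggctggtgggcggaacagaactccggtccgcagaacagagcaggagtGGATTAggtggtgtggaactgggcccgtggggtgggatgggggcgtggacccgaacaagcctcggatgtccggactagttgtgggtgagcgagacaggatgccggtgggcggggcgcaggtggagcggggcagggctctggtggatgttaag
*Cntf* (chr19:12765633-12765882, minus strand): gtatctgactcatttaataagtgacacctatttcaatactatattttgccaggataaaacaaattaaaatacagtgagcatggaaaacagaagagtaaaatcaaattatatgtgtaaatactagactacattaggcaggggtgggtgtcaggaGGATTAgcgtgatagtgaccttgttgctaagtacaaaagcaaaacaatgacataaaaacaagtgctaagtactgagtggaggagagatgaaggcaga
The *Nxnl1* window held the NRL letters, 58 to 53 bases before the start. The *Nxnl2* and *Cntf* windows held the CRX letters, 152 to 147 and 97 to 92 bases before it. All 10 genes had at least 1 window, 22 in all. The CRX letters occurred in 2 of these windows, the NR2E3 letters in 2 (a window of *Bdnf* and a window of *Gdnf*) and the NRL letters in 1. Among all 32851 windows of this length, 6.25% held the CRX letters, 13.1% those of NR2E3 and 16.1% those of NRL. *Ntrk2*, *Gfra1*, *Igf1*, *Igf1r* and *Cntfr* had none of these letters in their windows.

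Both cone viability factor genes fell in *rd7* retinas, and by nearly the same amount on the deposited scale. *Nxnl1* (Ensembl ENSMUSG00000034829.7, chr8:74084454-74090548 of mm9, minus strand) had an FPKM of 91.7 and 89.5 in *rd7* retinas against 122 and 118 in wild-type retinas. The genotypes did not overlap, and the *rd7* mean was 0.754 times the wild-type mean. Its log2 fold change was -0.41 (standard error, SE, 0.05; limma adjusted p = 0.0023). *Nxnl2* (ENSMUSG00000021396.4, chr13:51266394-51270556 of mm9, plus strand) had an FPKM of 86.2 and 89.8 in *rd7* retinas against 114 and 113 in wild-type retinas. Its log2 fold change was -0.37 (SE 0.05, limma adjusted p = 0.00297), and its *rd7* mean was 0.773 times the wild-type mean. Of the genes tested, 4.31% had a lower log2 fold change than *Nxnl1*, and 4.90% a lower value than *Nxnl2*. The ratio of *Nxnl1* to *Nxnl2* was 1.06 and 0.996 in *rd7* retinas, against 1.06 and 1.05 in wild-type retinas. With median-ratio scaling the log2 fold changes were -0.56 and -0.53. The correction for transcript length and GC set them further apart, at -0.53 for *Nxnl1* and -0.31 for *Nxnl2*. Both were still called (limma adjusted p = 0.0019 and 0.00996). The call of *Nxnl2* was lost without wild-type replicate 1 (limma adjusted p = 0.0515), with a log2 fold change of -0.36. The table has a single value per gene, so the short and long forms of either product were not separated.

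Part of the rod marker genes fell as well. Of 8 rod marker genes 6 were tested, and 3 of these fell, where 8.80% of all genes did and 19.6% with median-ratio scaling: *Gnat1* (log2 fold change -0.79), the gene of the rod transducin α subunit, *Cnga1* (-0.56), of the rod channel, and *Nrl* (-0.42), of the rod fate factor. The other 3, *Pde6a* (0.02), *Pde6b* (0.03) and *Sag* (-0.02), were not called. The summed FPKM of the 6 genes was 7720 and 8430 in *rd7* and 10500 and 10800 in wild-type retinas, of which *Gnat1* alone made up 2710 and 3330 against 5150 and 5210. The summed FPKM of 10 cone markers was 4520 and 4810 in *rd7* and 1450 and 1500 in wild-type retinas. *Pde6h* alone made up 1380 and 1520 against 323 and 312. Of these 10 markers 8 were higher, where 37.6% of all genes were, and *Opn1mw* (-0.16) and *Arr3* (0.08) were not called. With median-ratio scaling *Opn1mw* was called lower (-0.32, limma adjusted p = 0.047). The part of these differences in the fall of *Nxnl1* and *Nxnl2* was not tested. The 3 genes whose pattern over the 4 libraries was most like that of *Nxnl1*, by Euclidean distance of centred log2 values, were *Zfp771*, *Sepw1* and *D11Bwg0517e*, at distances of 0.0268, 0.0315 and 0.0351.

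**Figure D2:**
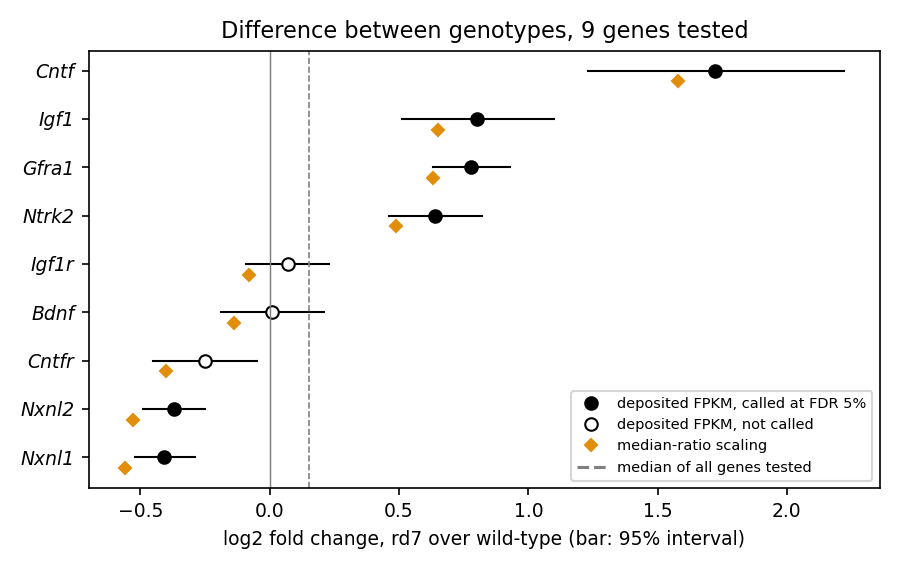
Log2 fold change of *rd7* over wild-type for the 9 genes tested (circles, filled where called at an FDR of 5%; bars, 95% intervals from limma; diamonds, the estimate after median-ratio scaling; dashed line, median of all genes tested at 0.15). *Cntf*, *Igf1*, *Gfra1* and *Ntrk2* lie to the right of the line and *Nxnl1* and *Nxnl2* to the left of 0 under both scalings.

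Among the neurotrophic ligands, the *Cntf* row gave the largest rise. *Cntf* (ENSMUSG00000079415.2, chr19:12838018-12840122 of mm9, minus strand) had an FPKM of 3.99 and 5.19 in *rd7* retinas against 1.09 and 1.56 in wild-type retinas. All values of *rd7* were above those of wild-type retinas. The log2 fold change was 1.72 (SE 0.20, limma adjusted p = 0.00239), or 3.46-fold in means, and 0.585% of the genes tested had a higher one. By the estimated worth of a read, the values assigned to this row amounted to 41.5 to 194 reads. They are not counts of all reads on the *Cntf* exons, which another row shares.

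The *Cntf* row overlaps another row of the table. The table also lists *Zfp91-Cntf*, a readthrough transcript of the neighbouring gene *Zfp91* into *Cntf*, at chr19:12838019-12870613 of mm9, while the row of *Zfp91* itself starts 374 bases beyond the end of the *Cntf* row. *Zfp91-Cntf* had an FPKM of 2.69 and 2.49 in wild-type libraries and of 5.31e-05 and 9.45e-05 in *rd7* libraries, which is less than the worth of a read. Against a floor of 3 reads per library it was at least 97.2-fold lower in *rd7*. Thus the row that shares the *Cntf* exons fell as the row of *Cntf* rose. The FPKM of both rows together, which stands for the density of reads over the shared exons, was 3.99 and 5.19 in *rd7* and 3.79 and 4.05 in wild-type retinas. Of these sums, 28.9% and 38.5% were assigned to *Cntf* in wild-type retinas and 100% in both *rd7* libraries. In a test of the sum, added after the values were seen, the log2 fold change was 0.21 (95% interval -0.12 to 0.54, limma adjusted p = 0.24), so the difference was not past the threshold once the rows were joined. Whether the readthrough transcript differed between genotypes, or the division of reads between the rows did, was not tested. *Zfp91*, a zinc finger gene, was higher in *rd7* (log2 fold change 0.36, limma adjusted p = 0.00329), with an FPKM of 28.6 and 28.5 in *rd7* retinas against 22.3 and 22.2 in wild-type retinas. Its sum with *Zfp91-Cntf* gave 0.20 (limma adjusted p = 0.0193). The call of *Zfp91* was lost without wild-type replicate 1 (limma adjusted p = 0.0503) and with the correction for transcript length and GC, which gave 0.01 (limma adjusted p = 0.917). The remaining 9 genes had no overlapping row. Without a filter on low FPKM the *Cntf* row alone was not called (limma adjusted p = 0.0644). The patterns most like that of the *Cntf* row were those of *Fcamr*, *Prickle2* and *Pde8a*, at distances of 0.202, 0.294 and 0.328.

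**Figure D3:**
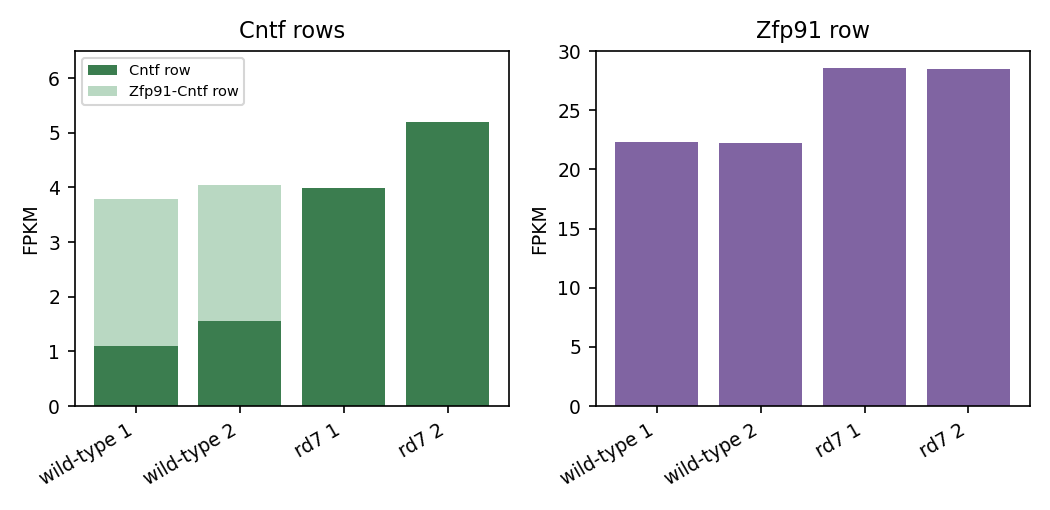
FPKM in each library of the *Cntf* row and the overlapping *Zfp91-Cntf* row, stacked (left), and of the *Zfp91* row (right). The height of the stack lies between 3.79 and 5.19 in all 4 libraries, while the share of the *Cntf* row differs between genotypes.

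The receptor gene *Cntfr* was not called. *Cntfr* (ENSMUSG00000028444.11, chr4:41604530-41644123 of mm9, minus strand) had an FPKM of 11.3 and 12.7 in *rd7* retinas against 14.9 and 13.6 in wild-type retinas. Both *rd7* values were lower, and the log2 fold change was -0.25 (95% interval -0.45 to -0.05, limma adjusted p = 0.0518). It was called lower under median-ratio scaling, where it reached -0.40 (limma adjusted p = 0.0173), under quantile normalization, which gave the same value, under a filter at 5 FPKM and without *rd7* replicate 2 (-0.33, limma adjusted p = 0.00552). It was not called under the other alternatives, with -0.16 without *rd7* replicate 1 (limma adjusted p = 0.0898) and -0.18 without wild-type replicate 1 (limma adjusted p = 0.304). The ratio of *Cntfr* to both *Cntf* rows together was 2.83 and 2.45 in *rd7* retinas, against 3.94 and 3.36 in wild-type retinas.

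Further genes of this pathway were higher. Of 17 genes of CNTF and gp130 signalling 10 were tested, 7 were higher in *rd7* and 0 lower, and their median log2 fold change was 0.49, beside 37.6% higher and a median of 0.15 over all genes. Beside *Cntf* these were *Osmr* (1.24), the oncostatin M receptor gene, *Stat3* (0.90), *Socs3* (0.80), which encodes a feedback inhibitor of JAK signalling, *Il6st* (0.62), which encodes gp130, *Jak2* (0.37) and *Lifr* (0.26). The 7 count the *Cntf* row taken alone, whose call was lost when it was summed with *Zfp91-Cntf*. Without *Cntf* and *Cntfr*, 6 of the 8 others tested were higher and 0 lower. With median-ratio scaling 5 of the 10 were higher, the *Cntf* row again among them, where 19.7% of all genes were. Under that scaling 2, *Cntfr* and *Il11ra1*, were lower, beside 19.6% of all genes. *Stat3* (limma adjusted p = 0.062) and *Lifr* (limma adjusted p = 0.144) lost their calls. *Stat3* had an FPKM of 18.6 in *rd7* replicate 1 and 32.8 in *rd7* replicate 2, against 13.0 and 13.3 in wild-type retinas. *Gfap*, the intermediate filament gene that marks reactive glia, had 10.3 and 28.1 against 7.59 and 8.14 and was not called (limma adjusted p = 0.0831). Of 5 reactive glia markers tested, *Stat3* was the 1 called, and their median log2 fold change was 1.1. *Serpina3n* (1.52), *Edn2* (1.13) and *Lcn2* (-0.18) were not called. *Cntf* and *Il6st* were also higher in *rd7* replicate 2 than in *rd7* replicate 1. The summed FPKM of 6 reactive glia markers, *Stat3* among them, was 33.0 and 82.1 in *rd7* and 25.8 and 26.5 in wild-type retinas, and its part in these values was not tested. The other cytokine genes of the list (*Lif*, *Clcf1*, *Il6*, *Il11* and *Osm*) lay under the filter.

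In the BDNF pathway the receptor gene rose and the ligand gene gave no detectable difference. *Ntrk2* (ENSMUSG00000055254.7, chr13:58907957-59231328 of mm9, plus strand) had an FPKM of 9.35 and 10.3 in *rd7* retinas against 6.23 and 6.30 in wild-type retinas. The genotypes did not overlap, with a log2 fold change of 0.64 (SE 0.07, limma adjusted p = 0.00222) and a mean 1.57 times that of wild-type retinas. *Bdnf* (ENSMUSG00000048482.7, chr2:109514857-109567200 of mm9, plus strand) had an FPKM of 3.77 and 3.60 in *rd7* retinas against 3.60 and 3.73 in wild-type retinas. The genotypes overlapped, and the log2 fold change was 0.01 (95% interval -0.19 to 0.21, limma adjusted p = 0.942). A correction for transcript length and GC gave *Bdnf* a value of -0.31 and called it lower (limma adjusted p = 0.0351), but not when a block for replicate number was added (limma adjusted p = 0.0567). Under that correction *Ntrk2* rose by 0.35 and was still called. The ratio of *Ntrk2* to *Bdnf* was 2.48 and 2.87 in *rd7* and 1.73 and 1.69 in wild-type retinas. The table does not separate the kinase form of TrkB from the truncated form that glia express.

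*Ntrk2* was among several receptor genes of its family that were higher. Of 14 genes of neurotrophin signalling 11 were tested, 7 were higher and 0 lower, with a median log2 fold change of 0.49. Over all genes 37.6% were higher and 8.80% lower, with a median of 0.15. *Ntrk3*, the receptor gene of neurotrophin-3, had an FPKM of 7.0 and 7.41 in *rd7* retinas against 4.13 and 3.64 in wild-type retinas, with a difference of 0.88 on the log2 scale (limma adjusted p = 0.00162). *Ngfr*, which encodes the p75 receptor shared by the neurotrophins, rose by 0.50, the sortilin-related receptor genes *Sorcs1* and *Sorcs2* by 0.55 and 0.49, the adaptor gene *Shc3* by 0.71 and the adaptor gene *Frs2* by 0.22. The ligand genes *Ntf3* and *Ntf5* lay under the filter. With median-ratio scaling 5 of the 11 genes were higher (19.7% of all genes) and 0 lower (19.6%), and *Ngfr* and *Frs2* lost their calls. Of 8 Müller glia markers 4 were higher, where 37.6% of all genes were: *Aqp4* (0.67), of a water channel, *Slc1a3* (0.64), the glial glutamate transporter gene, *Vim* (0.51) and *Kcnj10* (0.41). *Rlbp1*, *Glul*, *Apoe* and *Clu* were not called. With median-ratio scaling *Kcnj10* lost its call and *Apoe* was lower (-0.19). The summed FPKM of the 8 was 2260 and 2270 in *rd7* and 2030 and 2090 in wild-type retinas. Of 7 ganglion cell markers 1 (*Pou4f1*) was higher, a call lost with that scaling, under which *Thy1* was lower (-0.20), and their sum was 740 and 659 in *rd7* and 675 and 694 in wild-type retinas. The part of these cells in the rise of *Ntrk2* was not tested.

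In the GDNF pathway the co-receptor gene rose as well. *Gfra1* (ENSMUSG00000025089.8, chr19:58311182-58528956 of mm9, minus strand) had an FPKM of 10.1 and 9.77 in *rd7* retinas against 5.66 and 5.84 in wild-type retinas. The genotypes were separate, with the *rd7* mean at 1.73 times the wild-type mean. The log2 fold change of 0.78 (SE 0.06, limma adjusted p = 0.000971) was exceeded by 4.39% of the genes tested. It was called under each alternative run, with values from 0.60 to 0.80. The ligand gene *Gdnf* (ENSMUSG00000022144.3, chr15:7761011-7787575 of mm9, plus strand) had an FPKM of 0.095 and 0.089 in *rd7* retinas against 0.116 and 0.0707 in wild-type retinas. The *rd7* values lay between the wild-type values. These amount to an estimated 8.83 to 14.4 reads per library, above a floor of 3 reads at 0.0245 FPKM, and a difference was not detectable at this depth. Tested without the filter, its log2 fold change had a 95% interval from -0.51 to 0.51.

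Of the 12 genes of the GDNF family list 9 were tested, 5 were higher and 2 lower, against 37.6% and 8.80% of all genes, with a median log2 fold change of 0.22 against 0.15. *Ret*, the signalling kinase of the family, rose by 0.37 and *Gas1*, which encodes a RET-binding surface protein related to the co-receptors, by 0.41. *Gfra4* rose by 0.23 and *Frs2* by 0.22. *Gfra2*, the co-receptor gene of neurturin, was not called (0.01). The gene of neurturin itself, *Nrtn*, fell, with an FPKM of 5.60 and 4.70 in *rd7* retinas against 9.0 and 8.08 in wild-type retinas and a log2 fold change of -0.72 (limma adjusted p = 0.00427). *Ncam1*, an adhesion gene whose product can also bind GDNF, fell by 0.20. *Nrtn* had the highest FPKM of the 4 ligand genes of the family in each library. With median-ratio scaling 3 genes were higher (*Gfra1*, *Ret* and *Gas1*) and 2 lower (*Nrtn* and *Ncam1*), against 19.7% and 19.6% of all genes.

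In the IGF pathway it was the ligand gene that rose. *Igf1* (ENSMUSG00000020053.11, chr10:87321801-87399792 of mm9, plus strand) had an FPKM of 7.60 and 6.01 in *rd7* retinas against 3.77 and 3.91 in wild-type retinas. Both *rd7* values were above the wild-type values, with a mean 1.77 times that of wild-type retinas. Its log2 fold change was 0.80 (SE 0.12, limma adjusted p = 0.00453). The call was lost without wild-type replicate 1 (0.78, limma adjusted p = 0.0526), without a filter on low FPKM (limma adjusted p = 0.0802) and with the correction for transcript length and GC (0.42, limma adjusted p = 0.0522), although the same correction with a replicate block kept it (limma adjusted p = 0.0404). *Igf1r* (ENSMUSG00000005533.8, chr7:75097143-75378553 of mm9, plus strand) had an FPKM of 22.5 and 24.8 in *rd7* retinas against 22.7 and 22.2 in wild-type retinas. The genotypes overlapped, and the log2 fold change was 0.07 (95% interval -0.09 to 0.23, limma adjusted p = 0.398). The ratio of *Igf1r* to *Igf1* was 2.95 and 4.13 in *rd7* and 6.03 and 5.69 in wild-type retinas.

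Of 15 genes of the IGF list 12 were tested, and 4 were higher and 1 lower, shares near the 37.6% and 8.80% of all genes. The median log2 fold change of 0.16 was likewise close to the 0.15 of all genes. *Igf2r*, the receptor gene that clears IGF-2, rose by 0.38, the adaptor gene *Irs1* by 0.31 and the insulin receptor gene *Insr* by 0.19. *Igf2* fell, with a log2 fold change of -0.32. With median-ratio scaling 2 genes were higher (*Igf1* and *Igf2r*) and 3 lower (*Igf2*, *Irs2* and *Igfbp4*), beside 19.7% and 19.6% of all genes. Of the binding protein genes *Igfbp2*, *Igfbp3*, *Igfbp4*, *Igfbp5* and *Igfbp7*, none was called on the deposited scale. *Igfbp7* had an FPKM of 38.4 in *rd7* replicate 1 and 22.4 in *rd7* replicate 2, against 18.4 and 21.0 in wild-type retinas. *Igf1* was likewise higher in *rd7* replicate 1 than in *rd7* replicate 2, as was the vessel marker *Cldn5*, which encodes an endothelial junction protein (16.2 and 7.65, against 7.56 and 8.62). The summed FPKM of 6 vessel markers was 51.2 and 35.9 in *rd7* and 30 and 32.1 in wild-type retinas. That of 8 microglia markers was 24.6 and 30.9 in *rd7* and 21.4 and 21.3 in wild-type retinas, with 3 of the 6 tested genes (*P2ry12*, *Csf1r* and *C1qc*) higher, of which *C1qc* lost its call with median-ratio scaling. Of the 6 vessel markers 1, *Kdr*, was higher, and over all genes 37.6% were. No vessel or microglia marker was listed at 0 in all libraries. The part of these cells in the rise of *Igf1* was not tested.

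Partners of the cone viability factors rose by little or not at all. *Bsg*, which encodes basigin, had a log2 fold change of -0.02 and was not called, at an FPKM of 369 and 341 in *rd7* retinas against 358 and 359 in wild-type retinas. *Slc2a1*, the gene of the glucose transporter GLUT1 that basigin associates with, had an FPKM of 102 and 105 in *rd7* retinas against 84.4 and 86.1 in wild-type retinas (log2 fold change 0.28, limma adjusted p = 0.00595). Of 13 genes of this list, all tested, 6 were higher and 2 were lower, where 37.6% and 8.80% of all genes were, and the median log2 fold change of 0.16 was close to the 0.15 of all genes. The lower genes were *Nxnl1* and *Nxnl2* themselves. The higher genes beside *Slc2a1* were *Slc16a1* (0.33), a lactate transporter gene, *Nxn* (0.27), the thioredoxin genes *Txn1* (0.21) and *Txn2* (0.16), and *Mapt* (0.18), which encodes tau. With median-ratio scaling 0 of the 13 genes were higher and 2 were lower, where 19.7% and 19.6% of all genes were. Counts of higher genes in all 5 lists were smaller without wild-type replicate 1, at 0 for the viability factor list, 3 for neurotrophins, 1 for CNTF, 1 for GDNF and 0 for IGF. Over all genes 1293 were higher and 224 lower in that fit.

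Markers of the remaining cell types were read against the 37.6% of all genes that were called higher. Of 5 amacrine cell markers tested 3 (*Gad1*, *Gad2* and *Chat*) were higher, and all 3 calls were lost with median-ratio scaling, under which *Th* was lower (-0.46). Of the horizontal cell markers 3 of 3 tested were higher, of which *Lhx1* lost its call with that scaling, and of the pigment epithelium markers 3 of 6 (*Rpe65*, *Rgr* and *Ttr*), which kept theirs. The summed FPKM of the pigment epithelium list was 64.4 and 60.4 in *rd7* retinas against 38.6 and 25.3 in wild-type retinas. *Ttr* alone made up 39.3 and 34.9 against 21.1 and 13.1. *Rdh5* (0.47), *Tyr* (0.03) and *Mitf* (0.09) were not called. Under the filter, *Lrat* was higher (1.12 and 0.881 against 0.324 and 0.235) and *Best1* lower (0.11 and 0.0707 against 0.178 and 0.236). The summed FPKM of the lens list was 16.4 and 38 against 30.1 and 66, with 0 of 4 genes called. That of the blood list was 76.7 and 161 against 271 and 317, with 3 of 5 genes lower, beside 8.80% of all genes. Their part in the values of the survival genes was not tested.

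**Figure D4:**
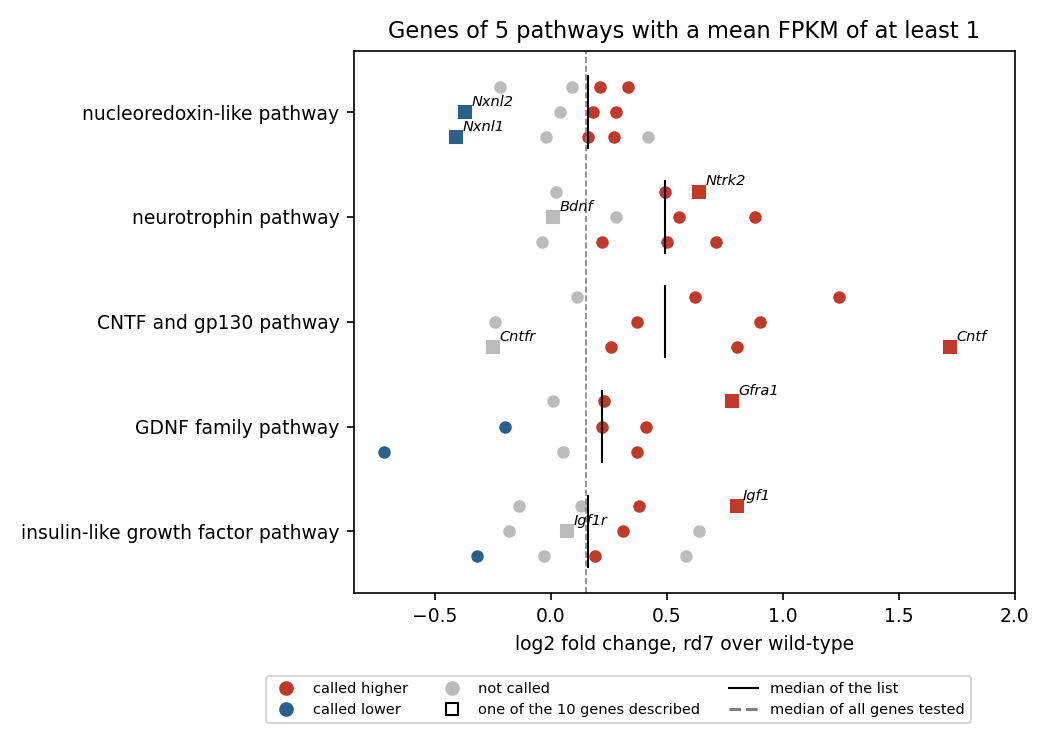
Log2 fold change of *rd7* over wild-type for each tested gene of the 5 pathway lists (red, called higher; blue, called lower; grey, not called; squares, the survival genes described; short lines, list medians; dashed line, median of all genes tested). The list medians lie between 0.16 and 0.49, beside 0.15 for all genes tested.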

How the data were processed

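PolyA RNA of 2 *rd7* and 2 wild-type pools of retinas was sequenced as single reads of 50 bp. The authors mapped reads to mm9 with TopHat 1.4.1 and deposited FPKM per gene and library from Cufflinks 1.3.0. The deposited FPKM divide by transcript length and depth, not by library composition. A deposited table of the authors' own Cuffdiff comparison (pooled FPKM, fold changes, p-values) was not used. Starts of loci were written counting from 1. Of 22095 rows, 262 without a successful status in every library were left out.

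Values were tested as log2(FPKM + 0.1) by limma 3.58.1 (R 4.3.3), two-sided, with eBayes variances that follow a trend in the level and no block. A fold change on this scale understates low genes. An exact permutation test of 2 against 2 libraries cannot give a p under 0.333. Simulated libraries in which 200 genes were changed served to test the fit. The 10 genes, the pathway and marker lists and the depth window were chosen with earlier results of these data known. Genes were named by a rule: all 10 genes, the rows overlapping *Cntf*, called pathway genes and members of their families, defining markers, *Nr2e3*, and the 3 genes nearest to the member with the largest rise and to that with the largest fall. *Igfbp7*, *Stat3* by library and *Cldn5* were singled out after their values were seen.

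FPKM hold no counts. From the lowest FPKM times exonic kb of genes with 1 transcript over 800 bp, within a window of 0.02 to 0.036 set by eye, 3.49e+07 to 3.56e+07 reads per library were estimated. Reads and floors from it are approximate and cover counting error only. Gene identifiers, strands, exonic length and GC content came from GENCODE on the same build with length and GC for 96.9% of the genes tested. Alternatives were other pseudocounts (1 and 0.01), filters, scalings, no trend, a replicate block, a GC and length correction, an FDR of 1% and leaving out each library. Python 3.11.15 was used for the remaining steps. Some genes of the pathway and marker lists are not reported here by name.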

Additional observations from a re-analysis of the deposited data

How the results depend on the processing

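With 2 pools per genotype, 4 libraries limit the precision. *Gfra1*, *Ntrk2* and *Nxnl1* kept their direction and call under all 15 alternatives run, and *Cntf*, *Igf1*, *Nxnl2*, *Cntfr*, *Bdnf* and *Zfp91* changed their call as described. The log2 fold change of *Bdnf* turned to -0.14 (median-ratio scaling), -0.2 (quantile normalization), -0.31 (GC and length correction, with or without the block) and -0.02 (without *rd7* replicate 1 and without wild-type replicate 1), and ranged up to 0.04 when single libraries were left out. That of *Igf1r* turned to -0.08, -0.07 and -0.02 under those 2 scalings and the correction, and the median of all genes to -0.01 (quantile) and -0.02 (correction). The survival genes called higher numbered 2 without a filter on low FPKM. The cause of these changes was not tested.

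All genes called higher and lower numbered 2582 and 446 at an FDR of 1%, 2249 and 455 without the filter, 2492 and 2479 under median-ratio scaling, 2350 and 2404 under quantile normalization, and 1523 and 1837 with the GC and length correction. In the cone viability factor list, 1 gene was higher at an FDR of 1%, without the filter, under quantile normalization or the correction, 0 with median-ratio scaling and 2 without a variance trend. In the neurotrophin list, 4 were higher without the filter, and 1 was lower with the correction. In the CNTF list, 3 were higher at an FDR of 1%, under quantile normalization or the correction, 2 without the filter and 4 under a filter at 5 FPKM. In this list 2 were lower with either scaling, and 1 with the correction and under a filter at 5 FPKM. In the GDNF list, 3 were higher at an FDR of 1%, under median-ratio scaling or the correction, and 2 without the filter and under quantile normalization. In this list 1 was lower at an FDR of 1% and without a trend, and 0 without the filter. In the IGF list, 2 were higher at an FDR of 1% and with median-ratio scaling, 1 without the filter and under quantile normalization, and 0 with the correction. In this list 2 were lower without the filter and 3 with either scaling. List medians moved by over 1.5 times to 0.25 (no filter) and 0.26 (correction) for neurotrophins, to 0.28 (no filter), 0.26 (filter at 5 FPKM) and 0.21 (correction) for CNTF, and to 0.13 (no filter), 0.06 (median-ratio) and 0.05 (quantile) for GDNF. Those of the viability factor and IGF lists lay between 0.0 and 0.04 under both scalings and the correction, and that of the IGF list was 0.1 without the filter and with a filter at 5 FPKM.

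Same-numbered libraries did not deviate together (r = -0.0265 across genes), so the numbers were not taken as pairs. Fitted with a replicate block, 4508 of all genes rose and 1091 fell, and 4 survival genes were higher and 2 lower. With the block and the GC and length correction, 1408 genes were higher, along with 1 of the viability factor list, 3 of the GDNF list and 1 of the IGF list, and 1 gene of the CNTF list was lower.

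When each library was left out in turn, a lone library was assumed to vary like the other genotype. The survival genes called higher then numbered 3 to 4 and those called lower 1 to 3. All genes called higher ranged from 1293 to 5484 and those called lower from 224 to 1601, with the lowest counts without wild-type replicate 1. Higher genes ranged from 0 to 6 in the viability factor list, from 3 to 8 in the neurotrophin list, from 1 to 7 in the CNTF list, from 1 to 5 in the GDNF list and from 0 to 6 in the IGF list. Lower genes ranged from 1 to 3, from 0 to 0, from 0 to 2, from 0 to 2 and from 0 to 3 in the same lists.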
